A study of Homo sapiens with 2 samples.

Results

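The genes described here encode secreted antimicrobial and mucosal defence proteins. They are a fixed list of 9 genes, LYZ, BPIFB1, LCN2, PIGR, SLPI, PI3, WFDC2, DMBT1 and LTF, out of the 31845 genes of an RNA sequencing table. The list was chosen with the counts of these same libraries in view, so the differences of its members are given as descriptions and nothing is inferred from them. Symbols were matched to Ensembl identifiers, and 8 of the 9 genes had a row. LTF, which encodes the iron-binding protein lactoferrin, had no row in the table used here, counts as 0 under the rule and has no ratio.

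Parental Capan-1 cells gave 1 library and a line derived from them that resists olaparib gave the other. Capan-1 is a cell line from a pancreatic adenocarcinoma with a mutant BRCA2 gene, although the labels give breast cancer as the cell type. The resistant line was raised by stepwise exposure to olaparib, a PARP inhibitor, from 15 nM to 128 uM. Whether it is a single clone, and whether drug was present when RNA was taken, is not given in the sources used here. The parental library held 34572931 counts and the resistant library 34507480. The columns taken as resistant carry a heading that the labels do not spell out, and were assigned as the remaining library, so each direction rests on that assignment. There was no replicate, so nothing was tested between the groups and no p-value is given. Intervals are 95% intervals for counting error only.

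Mucosal surfaces are protected by proteins that epithelial cells release onto them. Some of these attack microbes directly, as lysozyme does by cutting the bacterial cell wall, and others withhold iron, carry antibody across the epithelium, bind and clump microbes or block proteases released during inflammation. Many are made by gastric, airway and ductal epithelium and are raised by signals that act through NF-kB, C/EBP and related transcription factors.

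The 8 measured genes were in most cases much lower in the resistant library. BPIFB1, LYZ and DMBT1 differed by more than any of the others, LCN2 and PIGR were intermediate, SLPI differed by about the 2-fold size, and WFDC2 and PI3 lay within it. With a minimum of 50 counts in the higher library and a difference of at least 2-fold, 6 of the 8 were lower and 0 were higher. Over all 15102 genes at that minimum, 8.95% were lower and 6.00% higher, and since the list was chosen from this contrast nothing is read from that difference. The median log2 ratio of resistant over parental was -2.27 over the 8 genes and 0.06 over all genes. In bulk RNA of this kind, fewer cells that make a transcript and less transcript per cell cannot be told apart.

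**Figure D1:**
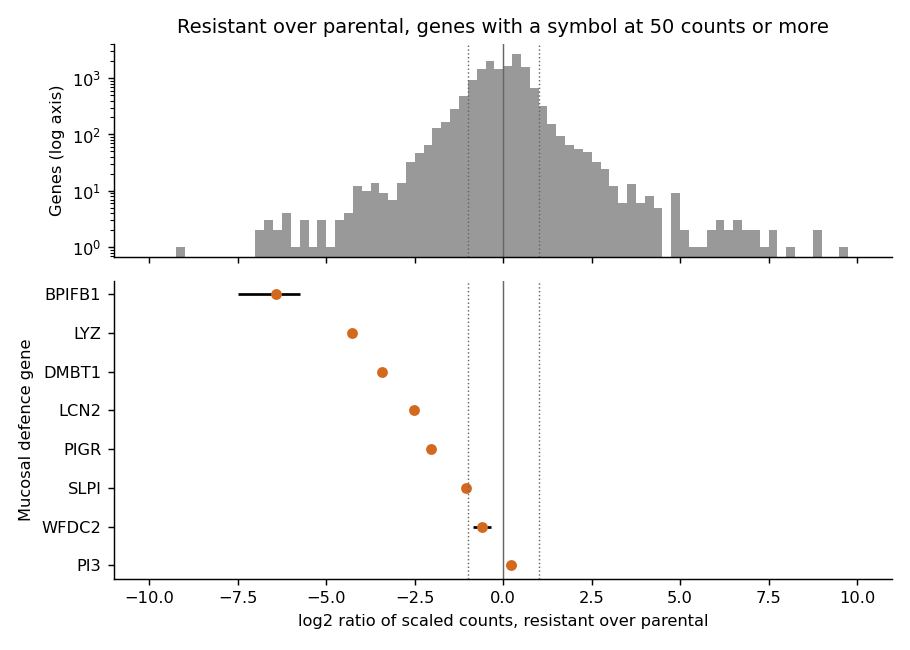
Upper panel, the number of genes (log axis) by log2 ratio of scaled counts, resistant over parental, for genes with a symbol and at least 50 counts in a library. Lower panel, the same ratio for the 8 measured mucosal defence genes with bars for the 95% counting interval, and dotted lines at a 2-fold difference. BPIFB1 at -6.43 and LYZ at -4.28 lie in the far left tail, and PI3 at 0.21 lies just right of 0.

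The stretches in front of 4 of these genes are shown because BPIFB1, DMBT1, LCN2 and PIGR were all at least 4-fold lower. RefSeq starts on GRCh38.p14 were found for 6 of the 9 genes. LYZ, SLPI and PI3 have no entry. Each line gives the 250 bases before the start, 5′ to 3′ on the gene's strand, with capitals for matches to the searched motifs.
LCN2, chr9:128149203-128149452, plus strand: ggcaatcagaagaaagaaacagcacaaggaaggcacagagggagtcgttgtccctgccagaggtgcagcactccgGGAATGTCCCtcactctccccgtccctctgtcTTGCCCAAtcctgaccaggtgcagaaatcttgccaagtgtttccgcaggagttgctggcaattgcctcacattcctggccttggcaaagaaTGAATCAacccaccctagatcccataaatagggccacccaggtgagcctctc
DMBT1, chr10:122560504-122560753, plus strand: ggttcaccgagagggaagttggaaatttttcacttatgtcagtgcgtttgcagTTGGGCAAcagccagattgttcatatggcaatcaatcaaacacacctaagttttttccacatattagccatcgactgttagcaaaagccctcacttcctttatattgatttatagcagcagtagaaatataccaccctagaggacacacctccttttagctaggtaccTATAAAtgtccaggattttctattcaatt
BPIFB1, chr20:33282964-33283213, plus strand: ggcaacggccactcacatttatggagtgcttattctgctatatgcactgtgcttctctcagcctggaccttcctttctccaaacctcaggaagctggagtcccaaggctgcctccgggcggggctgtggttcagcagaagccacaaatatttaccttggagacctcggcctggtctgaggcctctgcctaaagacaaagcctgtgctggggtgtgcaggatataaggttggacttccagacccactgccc
PIGR, chr1:206946467-206946716, minus strand: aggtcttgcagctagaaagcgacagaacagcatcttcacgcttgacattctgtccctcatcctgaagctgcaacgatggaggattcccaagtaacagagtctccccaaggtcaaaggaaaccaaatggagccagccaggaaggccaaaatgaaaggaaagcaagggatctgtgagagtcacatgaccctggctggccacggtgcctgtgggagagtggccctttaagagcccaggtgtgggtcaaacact

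The motifs searched were an AP-1 site (TGANTCA), C/EBP sites (TTNNGCAA or TTGCNNAA), the kappaB consensus, an ETS motif (CCGGAA) and part of an HNF1 motif (GTTAAT), all on both strands, and a TATA box (TATAAA) on the gene's strand. LCN2 held 3 matches, the kappaB consensus from position -175 to -166, a C/EBP match from -143 to -136 and an AP-1 match from -52 to -46, counted back from the start. DMBT1 held a C/EBP match from -197 to -190 and a TATA box from -29 to -24. BPIFB1 and PIGR held none of the searched letters in this window. Among 27305 promoters of the same length, 9.57% held the kappaB consensus, 9.13% a C/EBP match, 6.60% an AP-1 match and 7.17% a TATA box. The matches are a description of letters and the counts say nothing about whether a factor binds there.

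Among the genes with direct antimicrobial or microbe-binding products, LYZ (ENSG00000090382), which encodes lysozyme, had 30464 parental counts and 1555 resistant counts. Its deposited FPKM values, which are counts divided by gene length and by library size, were 615 and 32.7. By FPKM, LYZ ranked 70 among all genes of the parental library and 1961 among those of the resistant one. The level was 19.5-fold lower in the resistant library (interval 18.5 to 20.5), a log2 ratio of -4.28. An antisense gene annotated on the opposite strand of LYZ had 2637 and 148 counts, a 17.7-fold difference in the same direction. Its counts were 8.66% of those of LYZ in parental cells and 9.52% in resistant cells. The library kit keeps strand, but whether the counting used strand is not given in the sources used here, so the 2 genes cannot be separated with certainty.

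BPIFB1 (ENSG00000125999) encodes a secreted protein of the family of bactericidal/permeability-increasing proteins, made in airway and gastric epithelium. It had 1127 parental and 12 resistant counts, with FPKM values of 6.57 and 0.073. The difference was 93.3-fold (interval 53.2 to 181) and the log2 ratio -6.43, with 8 of the 15102 genes lower still. The interval is wide because the resistant value rests on 12 counts. Of the related genes on the wider list, BPI had 0 and 6 counts, and BPIFA1, BPIFA2, BPIFB2 and BPIFB4 had no row.

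DMBT1 (ENSG00000187908) encodes a large scavenger receptor glycoprotein that binds and agglutinates bacteria in saliva and gut mucus. It had 44993 parental and 4158 resistant counts, and FPKM values of 66.0 and 6.36. It was 10.7-fold lower in the resistant library (interval 10.4 to 11.1), a log2 ratio of -3.43. Longer genes had lower ratios in this table, with a median log2 ratio of 0.18 over the shortest genes and -0.28 over the longest when genes are put in 4 equal groups by the length behind their FPKM values, and DMBT1 is the longest gene of the list. With the trend of the ratio with gene length removed, an alternative added after the data were seen, its log2 ratio was -2.96.

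LCN2 (ENSG00000148346) encodes lipocalin 2, which binds bacterial siderophores and so withholds iron from microbes. It had 22939 counts in the parental and 3991 in the resistant library, with FPKM values of 414 and 75.0. The level was 5.71-fold lower (interval 5.52 to 5.91), a log2 ratio of -2.51. LCN2 was nonetheless the gene of the list with the highest deposited FPKM in the resistant library. The genes for its receptors and its binding partner were at the edge of detection, with 2 and 0 counts for SLC22A17, 0 and 2 for LRP2 and 14 and 6 for MMP9, parental first.

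PIGR (ENSG00000162896) encodes the polymeric immunoglobulin receptor, which carries dimeric IgA through epithelial cells and is shed with it as secretory component. It had the most counts of the list in both libraries, with 82537 parental and 20094 resistant counts. Its FPKM values were 217 and 55.2. The difference was 4.08-fold (interval 4.02 to 4.14), a log2 ratio of -2.03, which became -1.74 with the length trend removed. Of 29 genes listed around immunoglobulin transcytosis, a wider set than the route that PIGR uses, 28 had a row and 25 reached 50 counts. Beside 15.0% in either direction over all genes, 0 of these 25 were at least 2-fold lower or higher. Their median log2 ratio was 0.08, from -0.83 for RAB11B, a recycling endosome GTPase, through -0.68 for the IgG receptor FCGRT, to 0.57 for EGFR. Below the minimum, RAB11A had 3 and 13 counts and TNFSF13B, a B cell survival factor gene, 44 and 6. JCHAIN, which encodes the chain that joins IgA into dimers, had no row.

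SLPI, PI3 and WFDC2 share the whey acidic protein fold, and the first 2 encode inhibitors of neutrophil elastase, while WFDC2 encodes the secreted protein HE4. SLPI (ENSG00000124107) had 7503 parental and 3616 resistant counts and FPKM values of 142 and 71.3. It was 2.06-fold lower (interval 1.98 to 2.15), a log2 ratio of -1.04, which became -0.97 with upper quartile scaling. With that scaling, and with the deposited FPKM values, SLPI was inside 2-fold and 5 of the 8 genes were at least 2-fold lower. WFDC2 (ENSG00000101443) had 329 and 214 counts, FPKM values of 5.36 and 3.63, and was 1.53-fold lower (interval 1.28 to 1.82). PI3 (ENSG00000124102), which encodes elafin, had 793 and 913 counts, with FPKM values of 15.5 and 18.6. PI3 was thus the 1 gene of the 8 with more counts in the resistant library, by 1.16-fold (interval 1.05 to 1.28). The 3 genes lie near each other on chromosome 20, and their log2 ratios of -1.04, -0.61 and 0.21 differed by more than counting error. Other genes of the same family on the wider list were below the count minimum, with 30 and 13 counts for WFDC3, 6 and 3 for WFDC1, and 0 and 2 each for WFDC10B and WFDC12.

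**Figure D2:**
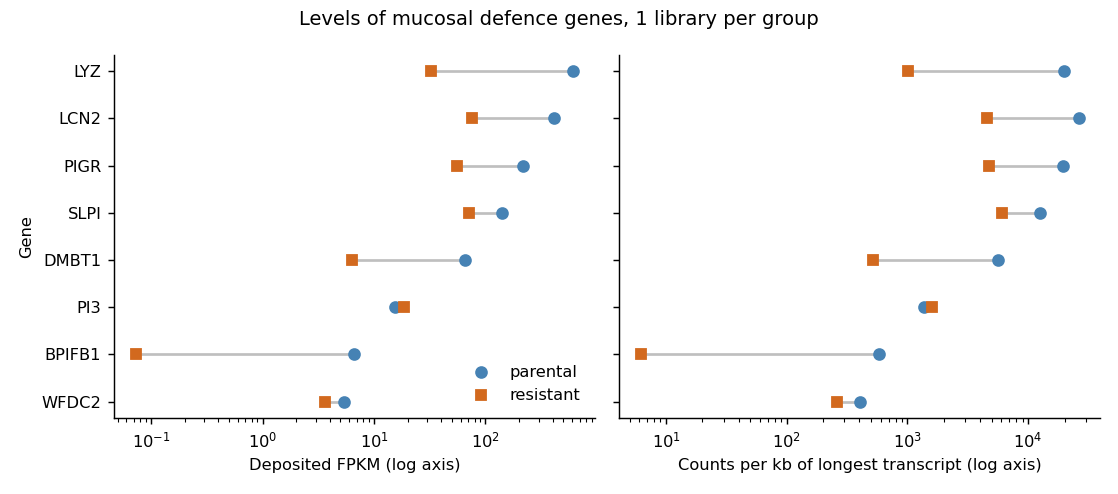
Levels of the 8 measured genes in the parental library (circles) and the resistant library (squares), 1 library each, as deposited FPKM (left, log axis) and as counts per kilobase of the longest GENCODE transcript (right, log axis). In the parental library LYZ is highest by FPKM and LCN2 by counts per kilobase, while the distance between the 2 symbols of a gene is nearly the same in both.

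The order of the genes by level depends on the length that each FPKM value was divided by. That length can be read from the count and the FPKM up to 1 common factor, taken from 1082 of 5505 coding genes with at least 500 parental counts and an FPKM of at least 5, which matched their longest GENCODE transcript within 1%. On that scale the deposited value of LYZ used 558 bases, while its longest annotated transcript has 1530. LCN2 used 625 of 877 bases, WFDC2 692 of 818 and DMBT1 7686 of 8073. PIGR (4279 bases), BPIFB1 (1933), SLPI (596) and PI3 (577) used the longest transcript. Differences between the libraries within 1 gene do not depend on this length.

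By deposited FPKM the parental order was LYZ, LCN2, PIGR, SLPI, DMBT1, PI3, BPIFB1 and WFDC2, with no overlap between the counting intervals of neighbours in that order. Per kilobase of the longest transcript, LCN2 came first at 26156 counts, followed by LYZ at 19911 and PIGR at 19289, and the rest kept their places. In the resistant library the FPKM order was LCN2, SLPI, PIGR, LYZ, PI3, DMBT1, WFDC2 and BPIFB1. LCN2 at 75.0 and SLPI at 71.3 did not differ beyond counting error. Per kilobase of the longest transcript SLPI came first there, at 6067 counts, then PIGR at 4696, LCN2 at 4551, PI3 at 1582 and LYZ at 1016, and the intervals of PIGR and LCN2 overlapped. On both scales LYZ was above SLPI in the parental library and below it in the resistant library.

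**Figure D3:**
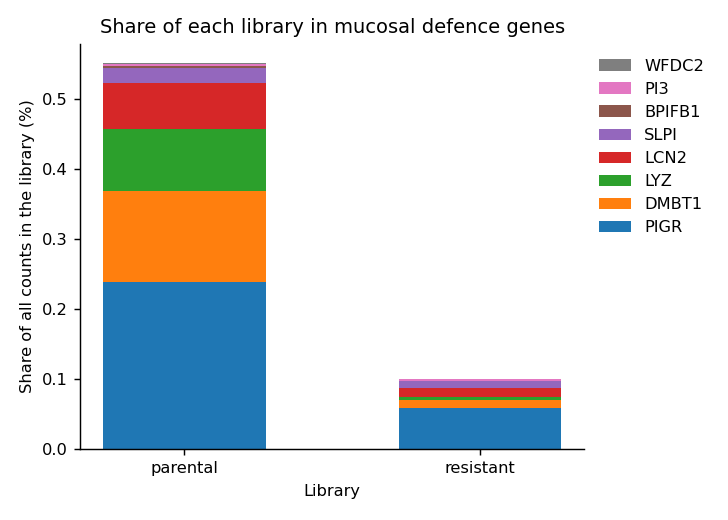
Stacked bars give the percentage of all counts of each library that fell on each of the 8 measured genes, 1 library per bar. The bar is 0.552% for the parental and 0.100% for the resistant library, and PIGR is the largest block in both.

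As a share of all counts, which needs no scaling between libraries, the 8 genes held 190685 parental counts or 0.552% of the library (exact interval 0.549 to 0.554). They held 34553 counts or 0.100% (0.0991 to 0.101) of the resistant library. Without PIGR the shares were 0.313% and 0.0419%. Within the 8 genes the make-up also differed. PIGR supplied 43.3% of their counts in parental cells and 58.2% in resistant cells, and SLPI 3.93% and 10.5%, while LYZ supplied 16.0% and 4.50%.

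**Figure D4:**
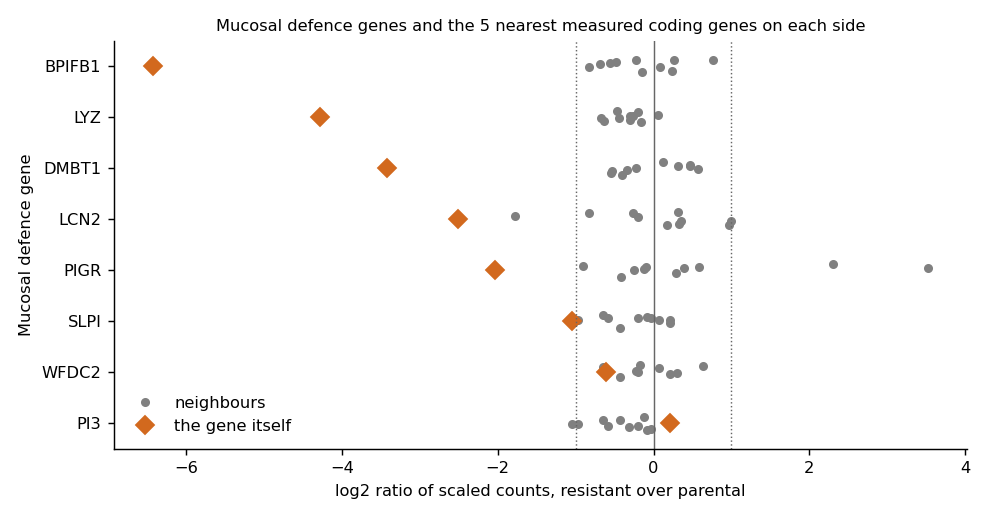
For each measured mucosal defence gene (diamond), the log2 ratio of scaled counts of the 5 nearest protein-coding genes with at least 50 counts on each side in gene order (circles), with dotted lines at 2-fold. The diamonds of BPIFB1, LYZ, DMBT1, LCN2, PIGR and SLPI lie left of all 10 of their neighbours, while those of WFDC2 and PI3 do not.

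The ratios of the genes next to the strongly lower ones are given as a description. Since the members were chosen with their own ratios in view, nothing is read from the contrast with their neighbours. The 10 measured coding neighbours of LYZ on chromosome 12 had a median log2 ratio of -0.30, from -0.67 to 0.06, with CPSF6 at -0.20 and YEATS4 at -0.47 on either side. Those of BPIFB1 on chromosome 20 had a median of -0.19, with MAPRE1 at 0.26 and CDK5RAP1 at 0.23 beside it. Those of DMBT1 on chromosome 10 had a median of -0.05, between HTRA1 at 0.12 and CUZD1 at -0.55. For LCN2 on chromosome 9 the median was 0.25, between PTGES2 at -0.20 and BBLN at -0.83, and 1 of the 10 was at least 2-fold lower. Around PIGR on chromosome 1 the median was 0.10, with MAPKAPK2 at -0.10 and C1orf116 at -0.25 beside it. With 10 genes on each side, the median around PIGR was -0.11 and the lowest ratio -3.15, below that of PIGR itself. Of these 20 genes, 2 were at least 2-fold lower and 3 higher. In the same wider window 1 was lower and 1 higher around LYZ, where the lowest ratio was -2.15. Around LCN2 1 was lower and 2 higher, around DMBT1 1 lower and 0 higher, and around BPIFB1 0 were either.

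Further along the C1orf116 side of PIGR, C4BPB and C4BPA, which encode the chains of a complement inhibitor, differed in the opposite direction from PIGR. C4BPB had 532 parental and 2624 resistant counts, a log2 ratio of 2.31, and C4BPA had 8 and 102, a log2 ratio of 3.53. Both were named after their values were seen. On chromosome 20, PI3 and SLPI are separated among measured coding genes by SEMG1, which encodes a seminal fluid protein and had a log2 ratio of -0.43. STK4 at -0.08 lay on the other side of PI3 and SDC4 at -0.58 on the other side of SLPI. WFDC2 lay between PIGT at 0.22 and DNTTIP1 at -0.43. The medians of the 10 neighbours were -0.14 for SLPI, -0.37 for PI3 and -0.19 for WFDC2.

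The coding genes most like LYZ, BPIFB1 and PIGR were taken as those closest in log2 ratio and log2 parental FPKM, out of 9824 with at least 200 counts in a library. The likeness rests on 2 libraries. For PIGR they were TFF2, a gastric trefoil peptide gene, at a distance of 0.14, the matrix protease gene MMP7 at 0.47 and the cathepsin gene CTSH at 0.54. For LYZ they were SPINK1, a secreted trypsin inhibitor gene, at 1.21, then LCN2 at 1.86 and TFF2 at 2.56. SPINK1 had 20024 and 2129 counts, and TFF2 11223 and 2513. For BPIFB1 they were SYNE1 at 2.07, LAIR2 at 2.31 and ANKFN1 at 2.50. The closest gene to BPIFB1 was thus farther off than the closest to LYZ or PIGR, although TFF2 lay farther from LYZ than ANKFN1 from BPIFB1.

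**Figure D5:**
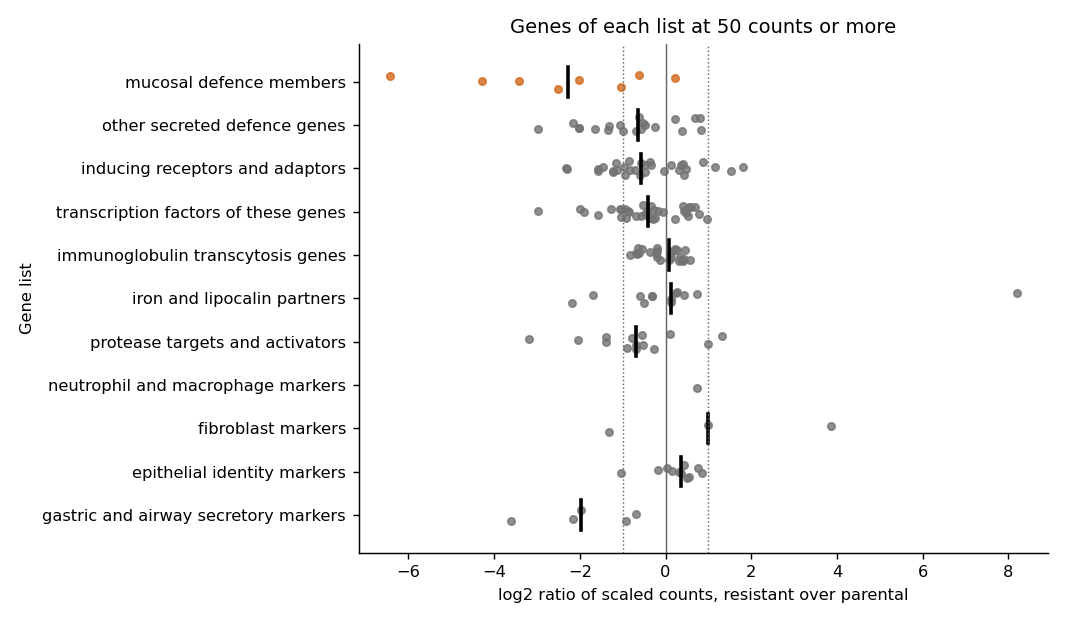
Each point is a gene with at least 50 counts in a library, placed by its log2 ratio of scaled counts (resistant over parental) in the row of its list, with a black bar at the median of lists of 3 or more genes and dotted lines at 2-fold. The 8 mucosal defence genes (first row) have a median of -2.27, and the immunoglobulin transcytosis genes one of 0.08.

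Among other secreted defence genes, 62 were listed. Of these, 41 had a row and 20 reached 50 counts. Of the 20, 9 were at least 2-fold lower and 0 at least 2-fold higher, with a median log2 ratio of -0.65. The shares over all genes are 8.95% and 6.00%. Since the list was chosen with earlier results of these data known, nothing is read from the difference. With upper quartile scaling 7 of the 20 were at least 2-fold lower, and 8 with the deposited FPKM values. C3, the central complement component, had 528 and 66 counts and a log2 ratio of -2.97. The complement factor genes CFB and CFI had log2 ratios of -2.03 and -1.65. DEFB1, an epithelial defensin gene, had 1420 and 313 counts and was 4.51-fold lower, and RNASE1, a secreted ribonuclease gene, was 4.06-fold lower. Those past 2-fold also included the protease inhibitor gene SPINK5 and the acute-phase genes SAA2 and SAA1, which are near-identical copies and so uncertain. SAA1 was at the edge, at 2.01-fold (interval 1.67 to 2.42). At the other end CD55, a cell-surface complement inhibitor gene, had a log2 ratio of 0.80 and RNASE4 one of 0.83. RNASE4 shares its locus with ANG, at 0.69, so reads may be split between them. The genes of this list named after C3, CFB, CFI, DEFB1 and RNASE1 were chosen after their values were seen.

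Of 34 receptors and adaptors through which such genes are induced, 31 reached 50 counts, with 9 at least 2-fold lower, 3 at least 2-fold higher and a median of -0.56. Over all genes the shares are 8.95% and 6.00%, to which the 3 higher genes are close. The list was chosen with earlier results known, so nothing is read from the difference for the 9 lower genes. With a minimum of 200 counts 5 were lower and 1 higher, and with the length trend removed 7 were lower and 3 higher. The interleukin receptor genes IL18R1 and IL1R1 had log2 ratios of -2.32 and -2.31, with 1540 and 306 counts and 721 and 144 counts. TLR1 and TLR2, which encode sensors of bacterial lipopeptides, both had a log2 ratio of -1.58, while TLR6, a close paralog of TLR1, had one of 1.80. TLR1 had 152 and 50 counts and TLR6 90 and 314, and reads may be split between these paralogs, so their opposite ratios are uncertain.

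Transcription factors linked to these genes had a median of -0.40 over the 35 of 42 at the count minimum. Of the 35, 8 were at least 2-fold lower and 0 at least 2-fold higher, beside shares of 8.95% and 6.00% over all genes. This list too was chosen with earlier results known, so nothing is read from the difference. NR1H4, the bile acid receptor gene, was 8.02-fold lower, the forkhead gene FOXA2 4.08-fold, GRHL1 3.74-fold, CEBPD, a C/EBP family gene, 2.97-fold and STAT6 2.42-fold. ELF3, an epithelial ETS factor gene, had a log2 ratio of -1.04, and so did NFKBIZ, which encodes a nuclear partner of NF-kB known to act on LCN2. The NF-kB subunit genes had log2 ratios of 0.97 for RELA, 0.78 for RELB, 0.60 for NFKB2, 0.55 for NFKB1 and -0.37 for REL, all within 2-fold. NFKBIZ and the subunit genes were named after their values were seen. With upper quartile scaling 5 of the 35 were at least 2-fold lower and 1, RELA, at least 2-fold higher.

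Among iron handling genes and lipocalin partners, 13 of 22 reached the minimum, 2 were at least 2-fold lower and 1 higher. The shares over all genes are 8.95% and 6.00%, and 13 genes chosen with earlier results known are too few to set against them. With a minimum of 10 counts, 5 were lower and 1 higher, beside 2821 and 1975 of all 20673 genes. The median of this list was 0.12, and -0.32 with a minimum of 10 counts. LRP1, an endocytic receptor gene, was 4.52-fold lower, and SLC40A1, the iron exporter gene, 3.21-fold. HEPH, a ferroxidase gene, had 0 parental and 292 resistant counts, at least 98.0-fold higher against a floor of 3 counts in the parental library. Among protease targets and activators, 14 of 21 reached the minimum, 4 were at least 2-fold lower and 1 higher, with a median of -0.70. The shares over all genes are again 8.95% and 6.00%. This list too was chosen with earlier results known, so nothing is read from the difference. SERPINA3, a secreted serine protease inhibitor gene, had 72 and 7 counts, PLAT, the tissue plasminogen activator gene, was 4.11-fold lower, and the kallikrein genes KLK6 and KLK10 were 2.66-fold and 2.62-fold lower. PLAU, the urokinase gene, was 2.51-fold higher. The neutrophil serine protease genes ELANE, CTSG and PRTN3 of this list had no row.

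Several of these proteins are also made by neutrophils and macrophages. Of 20 markers of those cells, 11 had a row, and MPO, ELANE, CTSG and PRTN3 were among the 9 that had none. The 11 summed to 419 parental and 671 resistant counts, and CD68, a lysosomal gene, supplied 351 and 582 of these. CD14 had 7 and 0 counts and PTPRC, the common leukocyte antigen gene, 7 and 19, against 30464 and 1555 for LYZ. Of the 12 epithelial markers, all had a row and 11 reached 50 counts, the exception being CLDN4 with 10 and 28 counts. Of the 11, 1, ELF3, was at least 2-fold lower, close to the share of 8.95% over all genes. Their median was 0.35, with KRT19 at 40864 and 51896 counts. With upper quartile scaling or the deposited FPKM values, 0 of the 11 were at least 2-fold lower.

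Fibroblast markers were sparse, with 190 and 703 counts over the 8 of 10 in the table. Of the 3 at the minimum, LUM was 15.0-fold higher and COL1A1 2.54-fold lower, with ACTA2 between them, and the median was 1.00, the value of ACTA2. These 3 genes are too few to set against the shares over all genes. The median was 1.30 with a minimum of 10 counts and 3.87 with 200. With upper quartile scaling 2 were at least 2-fold higher and 1 lower, and with the length trend removed 2 were higher and 0 lower. Few gastric and airway secretory genes could be compared. Of 18 listed, 11 had a row and 5 reached 50 counts, of which 3 were at least 2-fold lower and 0 higher, with a median of -1.96. The shares over all genes are 8.95% and 6.00%, and 5 genes are too few to set against them. PGC, the pepsinogen C gene, had 110 and 8 counts, TFF2 was 4.44-fold lower and AZGP1, a secreted glycoprotein gene, 3.91-fold. The airway genes SCGB1A1 and SCGB3A1 had no row. The part of these lists in the differences of the mucosal defence genes was not tested.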

How the data were processed

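RNA was sequenced from 2 libraries, 1 per group. The deposited table gives a whole-number count per Ensembl gene and library, with no normalization, and an FPKM value computed by the authors, per the file headers. The tool RSEM 1.2.3 and the build hg19 stand, without a role, in the list of tools and builds per the submitters' processing notes. Whether the counts are rounded estimates, and whether counting used strand, is not given in the sources used here. Strand-specific ScriptSeq libraries were made from Trizol RNA, per the labels' protocols.

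Symbols came from a gene name table (29536 identifiers matched) and GENCODE release 29 (29719 matched), which left 2126 unnamed. GENCODE served for names, gene order and transcript lengths only, since it describes another build. Scaling between libraries used the TMM method of edgeR (version 4.0.16, R 4.3.3). A prior of 1 count was added before log2 ratios were taken, resistant over parental, and folds are ratios of the scaled counts, with exact conditional (Clopper-Pearson) 95% intervals. Lists are described by the number of members at 50 counts or more that differed at least 2-fold, and by their median. Named genes were all members, up to 5 past 2-fold per list or the 2 largest, the 3 closest genes for LYZ, BPIFB1 and PIGR, and the nearest neighbours. Any other gene was named after its value was seen. The values of 1 listed gene are not reported here. The members, lists and settings were chosen with earlier results of these data known. Alternatives covered scaling, prior, count minimum, fold size, mean for median, the deposited FPKM values (with 0.01 added) and, added later, a lowess length trend. A comparison of the proteins was not made. Calculations were tested on simulated data. The other software was scipy 1.17.1, statsmodels 0.14.6, matplotlib 3.10.9, pandas 2.3.3 and numpy 2.4.6 under Python 3.11.15.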

Additional observations from a re-analysis of the deposited data

How the results depend on the processing

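No paired analysis was possible because each group had 1 library, and no library could be left out. The number of mucosal defence genes at least 2-fold lower was 5 or 6 of 8 under every alternative run, 5 at 4-fold, and their median stayed between -2.28 and -2.13, with a mean of -2.51. Ratios ranged over the alternatives from -6.49 to -6.05 for BPIFB1, -4.29 to -4.21 for LYZ, -3.44 to -2.96 for DMBT1, -2.52 to -2.44 for LCN2, -2.04 to -1.74 for PIGR, -1.05 to -0.97 for SLPI, -0.62 to -0.54 for WFDC2 and 0.20 to 0.28 for PI3. None changed sign. The 1352 lower and 906 higher genes became 1182 and 1034 with upper quartile scaling, and 1097 and 1061 with the length trend removed. Counts of all genes at least 2-fold lower and higher followed the minimum and size by construction, and they were 2821 and 1975 at 10 counts, 741 and 474 at 200 counts, 5887 and 5565 without a minimum, and 250 and 252 at 4-fold. Over identifiers with a symbol alone, the members' shares were 0.605% of the parental and 0.108% of the resistant library, since the total is smaller. Depth limited BPIFB1 most, with 12 resistant counts.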
